A study of Caenorhabditis elegans with 7 samples.

Results

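Homeobox, basic helix-loop-helix (bHLH) and T-box transcription factors were examined in young adults of Caenorhabditis elegans strain N2, the wild type, grown with or without the cocoa peptide 13L. The members were every gene on the Affymetrix array whose symbol starts with ceh-, hlh- or tbx-, except hlh-30, together with lin-39, mab-5, egl-5, php-3, nob-1, unc-4, unc-86, mec-3, ttx-3, lim-4, lim-6, lim-7 and lin-11. A gene counted only if a probe set was assigned to that gene alone, and its brightest such probe set was used. This gave 108 of the 17118 genes with a probe set of their own: 73 homeobox, 18 bHLH and 17 T-box genes. Worms of both groups were grown from the egg for 3 days at 20 °C. The control group (NGM) received the standard plates and the 13L group the same plates with 1 µg/mL of the synthetic peptide 13L. Total RNA of NGM worms was hybridized on 4 arrays (SL1, SL5, SL9 and SL69) and that of 13L worms on 3 (SL4, SL8 and SL12), and a further 13L array of the study was not analysed here. The comparison asks which of these genes changed in level with the peptide. The labels do not say which arrays came from separate cultures, so the p-values measure the spread between these arrays.

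These proteins bind DNA and switch on the genes of particular cell types. Homeobox genes set position along the body (the Hox genes) or the identity of single neuron classes (LIM, POU and paired-type genes), bHLH proteins work as dimers in neurons, muscle and glands, and T-box proteins act mainly in the embryo. In the worm many of them are active in a handful of cells or only before hatching, and a young adult hermaphrodite can also carry embryos in its uterus. In RNA from whole worms, fewer cells of a type and less RNA per cell cannot be told apart.

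Values are the deposited signals, taken to be on the log2 scale, and the paper describes normalization by robust multi-array averaging (RMA). Array medians were between 1.01 and 1.06, and arrays correlated at r = 0.982 to 0.995 over all probe sets. Markers of sperm and of neurons differed between arrays. The median log2 signal of 27 sperm genes ran from 2.96 to 7.33 on the NGM arrays and from 4.23 to 7.69 on the 13L arrays, with a median difference (13L minus NGM) of 0.56. For 20 pan-neuronal genes the median signal was 2.17 to 2.24 on NGM arrays and 2.01 to 2.05 on 13L arrays, and 15 of the 20 had a negative difference.

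Most of these transcription factors were near the lower end of the array's signal. The brightest control probe set against yeast RNA, which these worms should not hold, averaged 0.742 on the log2 scale and served as the lower limit of measurable signal. A total of 51 members were above it and 57 (52.8%) at or below it, against 41.2% of all genes. Above the limit were 38 of 73 homeobox genes, 8 of 17 T-box genes and 5 of 18 bHLH genes. Some members just above it shared 1 value on an array, such as 0.781 on SL12 for lim-7, lin-39, ceh-30, ceh-93 and hlh-6. On SL4, lin-39, ceh-10 and hlh-14 shared 0.803 with hlh-4, whose mean was below the limit. A mean just above the limit therefore does not show that a gene was measured. Only 4 members (3.70%) had a mean log2 signal over 4, a range that held 25.2% of all genes. Probe sets differ in brightness for reasons other than RNA amount, so these signals do not rank the genes by transcript number.

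**Figure D1:**
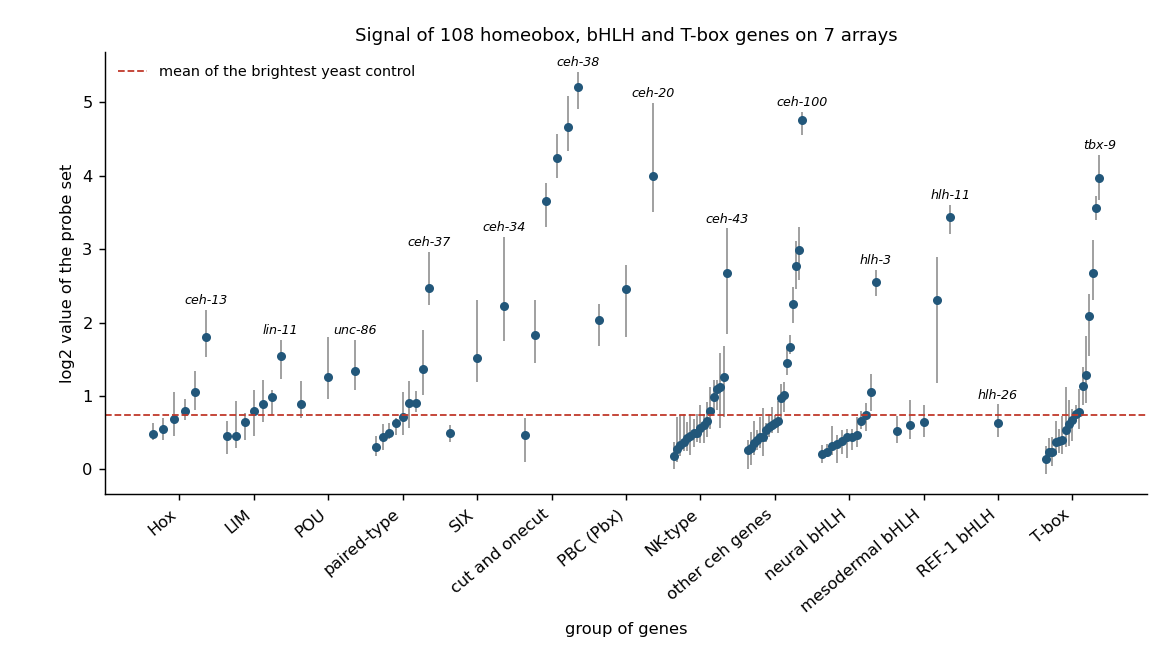
Log2 signal of each of the 108 members, with the mean over 7 arrays as a point and the lowest to highest array as a line, grouped by role on the horizontal axis. The dashed line is the mean of the brightest yeast control, and the brightest gene of each group is labelled. The cut and onecut genes hold 3 of the 4 members with a signal over 4, and most bHLH genes lie at or below the yeast control at 0.742.

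No member passed the test of 13L against NGM. With limma's moderated test and Benjamini-Hochberg adjustment over all 22548 non-control probe sets, 0 of 108 members had an adjusted p under 0.05 (background over all genes 0%), and the lowest adjusted p of a member was 0.944. Without adjustment, 1 member (ceh-60) was higher and 1 (ceh-51) lower at p under 0.05, against a background of 1.99% higher and 2.73% lower over all genes. The 13L arrays lay entirely above the NGM arrays for 2 members (lim-4 and unc-4; background 2.94%) and entirely below for 1 (ceh-45; background 2.85%). The difference was positive for 50 of 108 members (background 50.3%), with a median of -0.03 against 0.001 over all genes. Among the 51 members above the yeast control it was positive for 20 (background 46.8% of genes above that control), with a median of -0.04, and among the 57 dim members for 30. None of these shares of members called stood above its background.

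All member differences lay between -0.45 and 0.27 on the log2 scale. The 95% confidence interval of a difference reached 0.27 to either side in the median member and 0.33 in the median member above the yeast control. It stayed within 0.5 of zero for 86 members and within 1 for all but 4. A change of 1 log2 unit of signal in either direction therefore lay outside the interval of 47 of the 51 members above the yeast control. The interval also stayed within 1 for all 57 members at or below that control, but signal there is not measurable with certainty. For those 57 members the narrow intervals therefore set no limit on a change in RNA. Changes as small as the median interval could not be told from zero.

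**Figure D2:**
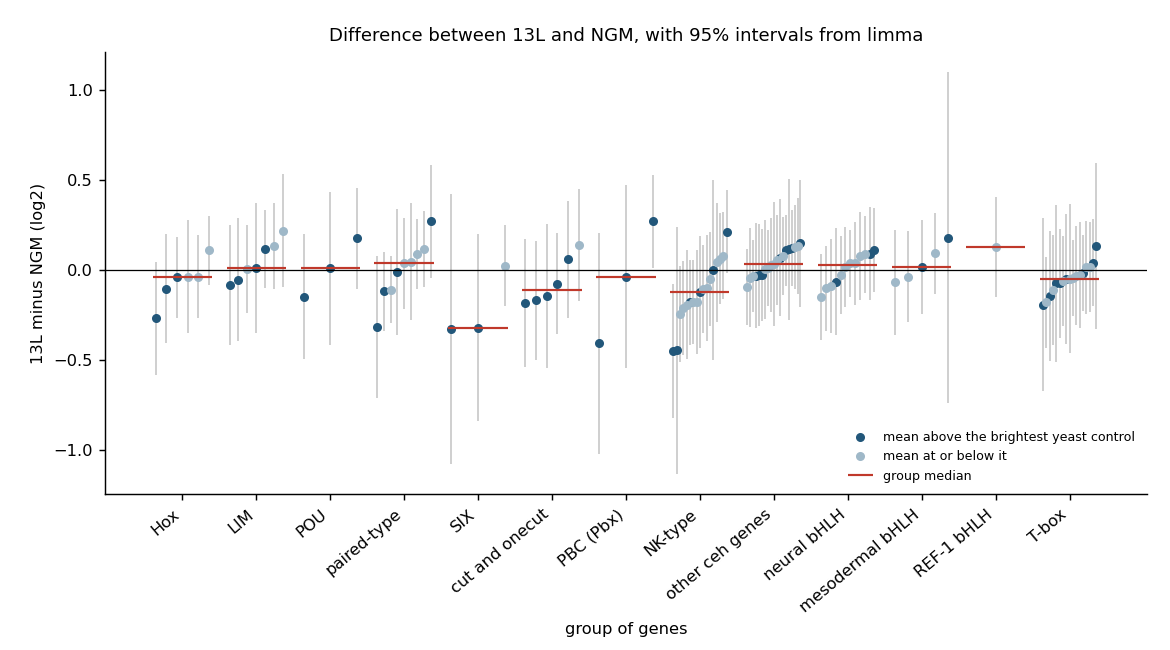
Difference in log2 signal (13L minus NGM) of each of the 108 members, grouped by role on the horizontal axis, with 95% confidence intervals from limma as lines and group medians as red bars. Dark points are members above the yeast control, and only the intervals of ceh-60 (the highest Pbx-type gene) and ceh-51 (the lowest NK-type gene) leave out zero.

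The member that was higher without adjustment was ceh-60, a Pbx-type homeobox gene that acts in the intestine to promote expression of yolk protein genes. Its log2 signal was 1.69, 2.14, 1.92 and 1.95 on NGM arrays SL1, SL5, SL9 and SL69, and 2.25, 2.13 and 2.21 on 13L arrays SL4, SL8 and SL12. All 13L arrays were high, but SL5 lay just above SL8, so the groups overlapped. The difference was 0.27 (1.21-fold; unadjusted limma p = 0.0433, adjusted p = 0.944; exact permutation p = 0.114, two-sided). The dimmer probe set of ceh-60, below the yeast control, differed by 0.07. With an array left out, the unadjusted limma p was under 0.05 in 1 of 7 fits, the fit without SL5, where the difference was 0.34. The difference was smallest, 0.19, without SL1. The vitellogenin genes, which encode yolk proteins, were very bright and differed little. Of 5 measured, 1 had a positive difference, and the values ran from -0.07 (vit-4) to 0.04 (vit-2). All but vit-2 averaged 9.80 to 10.9, near the highest mean of any gene, 11.4. A change in RNA may not show so close to the top of the range, so these values do not show that yolk transcripts were unchanged.

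The member that was lower without adjustment was ceh-51, an NK-2-type gene of the embryonic mesoderm that works downstream of the T-box gene tbx-35. Its log2 signal was 1.43, 1.21, 1.04 and 1.59 on SL1, SL5, SL9 and SL69 and 1.10, 0.94 and 0.57 on SL4, SL8 and SL12. The 13L arrays were low, yet SL9 of the NGM group fell below SL4. The difference was -0.45 (0.732-fold; unadjusted limma p = 0.0236, adjusted p = 0.944; exact permutation p = 0.114, two-sided). Leaving out an array at a time gave differences from -0.57 to -0.30, with an unadjusted p under 0.05 in 4 of 7 fits, not without SL1, SL69 or SL12. The only ceh-51 probe set has an identifier ending in _s_at, a type that can match more than 1 transcript. Its upstream gene tbx-35 was below the yeast control on every array and differed by -0.04.

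**Figure D3:**
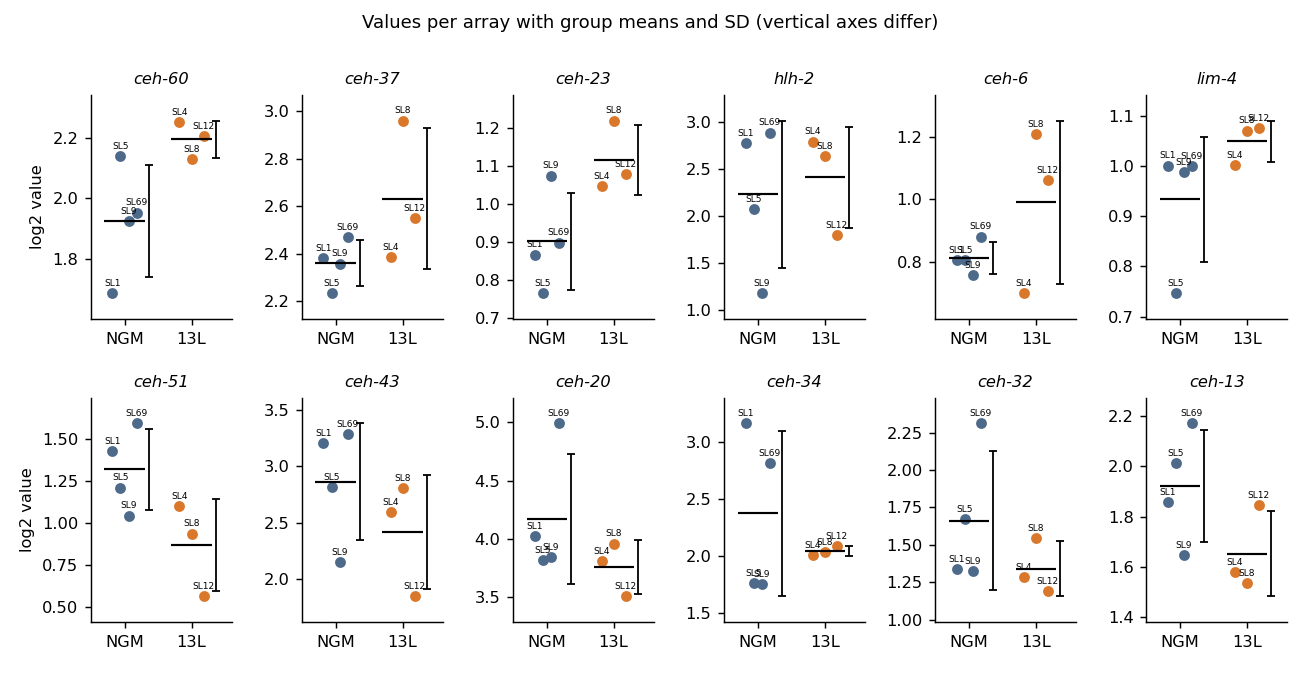
Log2 signal on each array, NGM and 13L side by side, for ceh-60, ceh-51, the members with the largest differences above the yeast control, ceh-13 and lim-4, with horizontal lines at the group means and bars of 1 SD to either side on vertical axes that differ between panels. Points of the groups overlap in every panel except lim-4, where the 13L arrays sit at 1.00 to 1.08 and the NGM arrays at 0.75 to 1.00.

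The cut and onecut homeobox genes were the brightest role group, and no gene of the 6 passed the test. ceh-38 encodes a onecut protein and had the brightest member probe set, at 5.15, 5.27, 5.22 and 5.33 on SL1, SL5, SL9 and SL69 and 5.41, 5.16 and 4.92 on SL4, SL8 and SL12. The NGM arrays lay inside the range of the 13L arrays, and the difference was -0.08. ceh-39 acts in sex determination, where it represses xol-1 as part of the X chromosome count. Its signal was 5.09, 4.53, 4.75 and 4.61 with NGM and 4.80, 4.55 and 4.34 with 13L, highest on SL1 and lowest on SL12. Its difference was -0.18.

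ceh-21 and ceh-41 are the other onecut genes of the same X-linked cluster: in the WBcel235 annotation ceh-41 and ceh-21 are adjacent and ceh-39 follows with 1 coding gene between. ceh-21 read 4.57, 4.15, 4.22 and 4.31 on the NGM arrays and 4.44, 4.01 and 3.98 on the 13L arrays. ceh-41 read 2.31, 1.78, 1.71 and 1.78 with NGM and 2.01, 1.77 and 1.46 with 13L. On these brightest probe sets all 3 genes of the cluster were highest on SL1 and lowest on SL12. Their differences were -0.18, -0.17 and -0.15 for ceh-39, ceh-21 and ceh-41. The dimmer probe sets did not all share this order. That of ceh-41, with a mean of 0.63 below the yeast control, was highest on SL8 and differed by 0.09, and the second of ceh-21 was also highest on SL8. ceh-49, another onecut gene, differed by 0.06 and the dim ceh-48 by 0.14.

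The onecut genes also showed how far a difference depended on the probe set. The second probe set of ceh-38, dimmer with a mean of 3.14, was higher with 13L by 0.37 and had an unadjusted limma p under 0.05 (adjusted p = 0.944), opposite in sign to the brighter one. For ceh-21 the 3 probe sets differed by -0.17, 0.31 and -0.12 from the brightest to the dimmest, and for ceh-39 by -0.18, 0.05 and -0.33. Over all members 19 had more than 1 probe set of their own, and in 11 of these a further probe set had the opposite sign. Of the 131 member probe sets, 4 had an unadjusted p under 0.05, against a background of 5.11% over all probe sets.

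**Figure D4:**
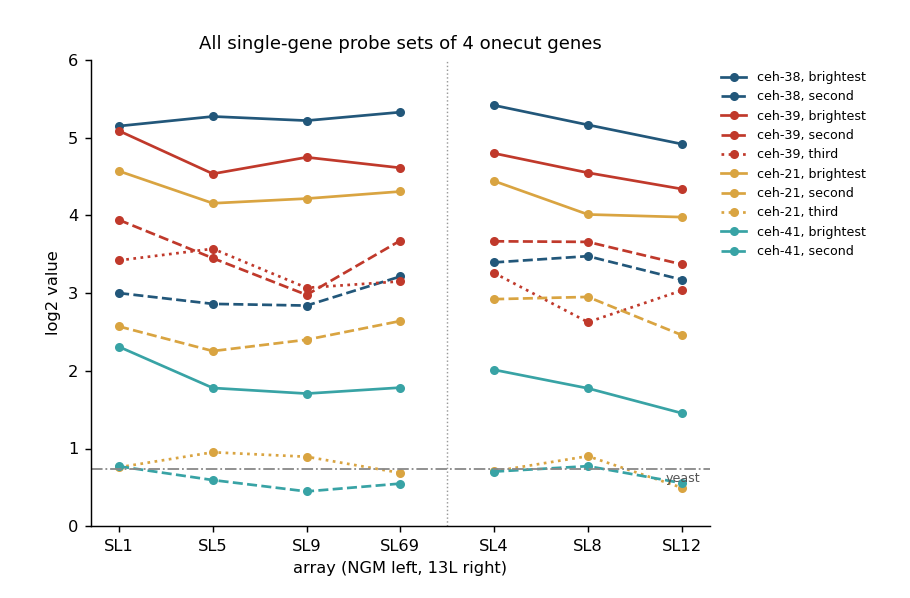
Log2 signal on the 7 arrays for each probe set of ceh-38, ceh-39, ceh-21 and ceh-41, with NGM arrays on the left, 13L arrays on the right and lines that only join the points of a probe set. The 2 probe sets of ceh-38 differ in opposite directions, by -0.08 and 0.37.

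The remaining Pbx-type genes, ceh-20 and ceh-40, encode cofactors with which Hox proteins bind DNA. The signal of ceh-20 was 4.02, 3.82, 3.85 and 4.99 on SL1, SL5, SL9 and SL69 and 3.81, 3.96 and 3.51 on SL4, SL8 and SL12. SL69 stood above every other array and the rest of the groups overlapped. The difference was -0.41 (exact permutation p = 0.229) and became -0.13 without SL69, while the second ceh-20 probe set differed by 0.10. ceh-40 differed by -0.04, with SL12 lowest at 1.80.

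Hox genes pattern the body axis from head to tail. Of 6, 3 were above the yeast control and 5 had a negative difference, with a median of -0.04. The brightest was ceh-13, the labial homologue of the anterior embryo. It read 1.86, 2.01, 1.65 and 2.17 on the NGM arrays and 1.58, 1.54 and 1.85 on the 13L arrays. SL4 and SL8 were lower than all NGM arrays and SL12 lay among them, and the difference of -0.27 did not pass (unadjusted limma p = 0.0864, exact permutation p = 0.114). Its neighbour lin-39, which acts in the vulval precursor cells, read 0.67 to 0.96 with NGM and 0.75 to 0.80 with 13L and differed by -0.04. Among the posterior genes, mab-5 of the Q neuroblast lineage differed by -0.10, egl-5 of the tail by 0.11, and the adjacent php-3 and nob-1 by -0.04 each. egl-5, php-3 and nob-1 had means below the yeast control.

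LIM homeobox genes specify individual neuron classes and some other cells. Of 7, 4 were above the yeast control, 5 had a positive difference and the median was 0.01. The brightest was lin-11, which acts in vulval cells and in several interneurons. Its signal was 1.30, 1.67, 1.76 and 1.62 with NGM and 1.71, 1.24 and 1.56 with 13L, with full overlap and a difference of -0.09. A second lin-11 probe set with a mean of 0.76 was lower on every 13L array, with a difference of -0.30 and an unadjusted limma p under 0.05 (adjusted p = 0.944).

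lim-4, which sets the identity of the AWB olfactory neuron, was the LIM gene whose groups did not overlap. It read 1.00, 0.75, 0.99 and 1.00 on SL1, SL5, SL9 and SL69 and 1.00, 1.07 and 1.08 on SL4, SL8 and SL12. SL1 and SL4 were nearly equal, at 1.001 and 1.002, and the low SL5 set most of the difference of 0.12 (exact permutation p = 0.0571, the smallest that 3 against 4 arrays allow; unadjusted limma p = 0.26). Without SL5 the difference was 0.05. ttx-3 of the AIY interneuron differed by 0.01, lim-6 of GABAergic and other neurons by 0.01, and lim-7 of the gonadal sheath by -0.05. The means of lim-6, of ceh-14 of the AFD thermosensory neuron and of mec-3 of the touch neurons were below the yeast control. ceh-14 and mec-3 differed by 0.22 and 0.13.

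The 3 POU genes were all above the yeast control, with unadjusted p-values over 0.05. unc-86, required for touch neurons and many other neuron classes, read 1.37, 1.38, 1.12 and 1.77 with NGM and 1.43, 1.09 and 1.27 with 13L. SL69 was highest and SL8 lowest, and the difference was -0.15. ceh-6 of the excretory canal differed by 0.18 and ceh-18 of the gonadal sheath by 0.01. The 20 pan-neuronal genes had a median difference of -0.20, with 2 lower at an unadjusted limma p under 0.05 (background 2.73%). The part of these genes in the values of the neuronal members was not tested.

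Paired-type genes include the Otx-like ceh-36 and ceh-37, which specify sensory neurons and are adjacent in the annotation. Of 9, 4 were above the yeast control and 5 had a positive difference. ceh-37 read 2.38, 2.23, 2.36 and 2.47 with NGM and 2.39, 2.96 and 2.55 with 13L. SL8 stood out above the others, and the difference of 0.27 (exact permutation p = 0.114) became 0.11 without it. Its dimmer probe set differed by -0.13. ceh-36 read 1.90, 1.51, 1.09 and 1.51 with NGM and 1.26, 1.28 and 1.01 with 13L and differed by -0.32, with SL9 among the 13L values. unc-4, which sets the synaptic inputs of motor neurons, and ceh-45 had groups that did not overlap. Both were below the yeast control, where signal is not measurable with certainty, and differed by 0.09 and -0.11.

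Of the Six-type genes, which act in head development, ceh-34 specifies pharyngeal neurons and ceh-32 acts in head morphogenesis. ceh-34 read 3.16, 1.76, 1.75 and 2.82 on SL1, SL5, SL9 and SL69 and 2.01, 2.04 and 2.09 on SL4, SL8 and SL12. The NGM arrays fell into a high pair (SL1 and SL69) and a low pair (SL5 and SL9), with the 13L arrays close together between them. The difference of -0.33 became -0.07 without SL1. ceh-32 read 1.34, 1.67, 1.32 and 2.31 with NGM and 1.29, 1.55 and 1.19 with 13L. Its difference of -0.32 became -0.10 without SL69. The adjacent ceh-33 was below the yeast control and differed by 0.02.

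NK-type and related genes formed a large group, with 17 genes, 6 above the yeast control, 12 with a negative difference and a median of -0.12. ceh-43, the Distal-less homologue of anterior epidermis and dopaminergic neurons, was the brightest. It read 3.20, 2.81, 2.15 and 3.28 on SL1, SL5, SL9 and SL69 and 2.59, 2.81 and 1.85 on SL4, SL8 and SL12. SL9 and SL12 were low and SL1 and SL69 high, so the groups overlapped. Its difference of -0.45 (exact permutation p = 0.286) ranged from -0.69 without SL9 to -0.16 without SL12. ceh-23, expressed in AIY and several sensory neurons, was higher by 0.21 (exact permutation p = 0.114). ceh-16, the engrailed homologue of the seam cells, differed by -0.18, and ceh-22, the Nkx2-5 homologue of pharyngeal muscle, by -0.24 from a mean below the yeast control. The differences of 5 pharyngeal muscle genes were -0.49 (tnc-2), -0.45 (tni-4), -0.39 (myo-1), -0.10 (myo-2) and -0.006 (myo-5). All 5 had unadjusted p-values over 0.05.

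The 19 other ceh genes had a positive difference in 13 and a median of 0.03. The brightest was ceh-100, at 4.81, 4.56, 4.78 and 4.68 with NGM and 4.84, 4.78 and 4.87 with 13L. Its 13L arrays were high but SL8 lay below SL1, and the difference was 0.12. ceh-83 differed by 0.11 and ceh-58 by 0.15.

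Among bHLH genes only 5 of 18 were above the yeast control, and all had unadjusted p-values over 0.05. The differences ran from -0.15 to 0.18. hlh-2, the E/Daughterless homologue with which many tissue-specific bHLH proteins dimerize, read 2.78, 2.08, 1.18 and 2.89 on SL1, SL5, SL9 and SL69 and 2.79, 2.64 and 1.80 on SL4, SL8 and SL12. It had the largest SD within groups of all members above the yeast control, 0.70, and SL9 was far below the others. Its difference of 0.18 had a 95% confidence interval of -0.74 to 1.10 and became -0.17 without SL9. The second hlh-2 probe set, with a mean of 2.07, differed by -0.04. The 3 probe sets of hlh-11, an AP-4 homologue, differed by 0.01 each, and the dimmest had a mean below the yeast control. On single arrays the brightest ran from 3.21 (SL12) to 3.61 (SL4). hlh-3, an achaete-scute homologue of the HSN motor neuron, differed by 0.09.

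The muscle regulators hlh-1, the MyoD homologue, and hlh-8, the Twist homologue of the sex muscles, were below the yeast control and differed by -0.04 and 0.09. Of 7 body wall muscle genes, 4 had a positive difference, from -0.42 (unc-22) to 0.20 (unc-54). hlh-6, required for the pharyngeal glands, had a mean of 0.75 and differed by 0.11, while the gland genes phat-1 to phat-6 ran from -0.90 (phat-5) to 0.21 (phat-4) without passing. The REF-1-type gene hlh-26 was dim and differed by 0.13. The REF-1-type genes hlh-25 and hlh-27 share a probe set, so they are not members, and that probe set differed by -0.07.

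T-box genes mostly act in early embryos, and 13 of 17 had a negative difference, with a median of -0.05 and none with an unadjusted p under 0.05. tbx-9, which acts with tbx-8 in embryonic morphogenesis, read 4.29, 4.06, 3.93 and 3.87 with NGM and 4.26, 3.75 and 3.67 with 13L. SL1 and SL4 were high and SL12 low, so the groups overlapped, and the difference was -0.14. Its neighbour tbx-8 had a mean of 0.75 and differed by -0.02. tbx-36 differed by 0.04, tbx-33 by -0.07 and tbx-2, which acts in pharyngeal muscle formation, by -0.19. A probe set shared by tbx-30 and tbx-42, outside the members, was below the yeast control and differed by -0.27, with an unadjusted limma p under 0.05 (adjusted p = 0.944).

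The 5 members above the yeast control with the largest SD within groups were hlh-2, ceh-34, ceh-43, ceh-20 and ceh-32, at 0.70, 0.56, 0.51, 0.45 and 0.38. The median was 0.21 for all 51 members above the control and 0.19 for all genes above it. All 5 genes were high on SL69, 3 of them (hlh-2, ceh-34 and ceh-43) also on SL1, and each was lowest on SL9 or SL12. Counted over the members above the control, SL1 or SL69 was the highest of the 7 arrays for 26 of 51 (50.98%), against 35.2% of all genes above it. SL9 or SL12 was the lowest for 24 of 51 (47.1%), against 34.4%. These array pairs were chosen after the values had been seen, and the counts are a description.

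Markers of the early embryo were in the median also highest on SL1 and SL69, but not each of them. The gene end-1 was highest on SL8 (2.42) and lowest on SL69 (1.67), and end-3, med-1 and pal-1 were highest on SL4. pes-10, an early embryonic transcript, read 2.56, 1.85, 1.39 and 3.02 on SL1, SL5, SL9 and SL69 and 2.12, 2.17 and 1.12 on SL4, SL8 and SL12. Of 17 such markers measured, 16 were above the yeast control, and med-1, a defining gene of the earliest mesendoderm, was not. Whether each of the 17 is read only in embryos was not tested, so their values are not a measure of embryos alone. The markers pal-1 and hnd-1 are also counted below among the other homeobox, bHLH and T-box genes. The median deviation of the 17 from their own 7-array means was 0.19 on SL1 and SL69, -0.02 on SL5, -0.13 on SL9, -0.05 on SL4, 0.00 on SL8 and -0.20 on SL12. A total of 14 of the 17 had a negative difference, and the median of the 17 was -0.16. The differences of end-1 (0.10), end-3 (0.02) and med-1 (0.15) were positive. The part of embryos in the members' values was not tested.

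**Figure D5:**
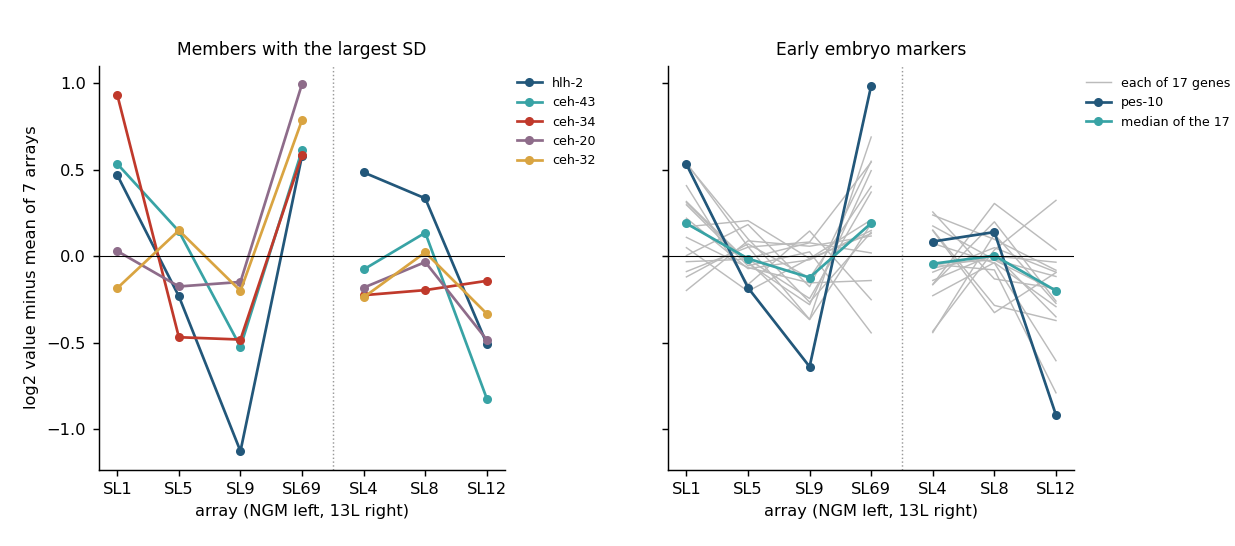
Log2 signal minus the mean of 7 arrays, for the 5 members with the largest SD within groups (left) and for 17 early embryo markers with pes-10 and their median drawn in colour (right). Lines only join the points of a gene within a group, and both panels reach their highest values on SL69 or SL1 and most of their lowest on SL9 or SL12.

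The array titles carry numbers in 3 runs that hold an array of each group (SL1 with SL4, SL5 with SL8, SL9 with SL12), and what the runs stand for is not stated. Taking the difference within each run, 13 members (12.04%) were higher with 13L in all 3 runs and 19 (17.6%) lower in all 3, against 13.6% and 15.2% of all genes. With the runs as a block, which leaves SL69 without a partner, 0 members had an adjusted p under 0.05. Without adjustment, 1 member was higher and 3 lower at p under 0.05 in that fit, against a background of 3.82% higher and 4.06% lower over all probe sets, so neither share of the members stood above it. In these 4 genes, ceh-51 differed by -0.36, ceh-36 by -0.32, ceh-43 by -0.31 and hlh-2 by 0.40. Under the block ceh-60 differed by 0.28 and was not among them.

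Other homeobox, bHLH and T-box genes that carry different symbols were measured beside the members. Of 40 listed, 39 were measured. Their median difference was -0.03, with 17 on the positive side and 1 lower at an unadjusted limma p under 0.05 (background 2.73%). That gene was mdl-1, a Mad-type bHLH partner of the Myc-like network, at -0.52 (adjusted p = 0.944). The closest on the positive side were mab-9, a T-box gene of the hindgut, at 0.25 and cky-1, a bHLH-PAS gene, at 0.23. Both had means below the yeast control, 0.66 and 0.56. unc-62, the Meis-type partner of ceh-60 and ceh-20, differed by 0.00.

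Known targets of the neuronal members were measured as well. Of 10 touch neuron genes that depend on unc-86 and mec-3, 4 had a positive difference. Both mec-7 (a beta-tubulin) and mec-17 (an alpha-tubulin acetyltransferase) had a difference of -0.37 and an unadjusted limma p under 0.05 (adjusted p = 0.944). The background of genes lower at that unadjusted p was 2.73%. mec-17 was lower on every 13L array (background 2.85%), and mec-10, a channel subunit, was higher on every 13L array (background 2.94%), by 0.16. The mean of mec-10, 0.64, was below the yeast control, and its groups barely parted, with SL69 at 0.683 and SL4 at 0.686. Of 7 AIY genes that depend on ttx-3 and ceh-10, 5 had a positive difference. The neuropeptide gene flp-1, at -0.23, was lower on every 13L array (background 2.85%). The pan-neuronal genes also had a negative median difference, and whether these values are particular to touch or AIY neurons was not tested.

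Members often lie side by side in the genome. In the WBcel235 annotation 12 pairs of members were adjacent, with no coding gene between. Both genes were above the yeast control in 5 pairs, such as ceh-18 with lim-4 and ceh-36 with ceh-37, and neither in 3. In 4 pairs only 1 gene was above it, such as ceh-34 beside ceh-33 and ceh-30 beside ceh-31.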

How the data were processed

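Whole N2 worms were measured on 7 Affymetrix C. elegans Genome arrays. The deposited values were read as log2 signals per probe set, and the fold changes rest on that reading. The paper describes RMA background correction and quantile normalization, and the values carry no read depth. Software versions were not given in the sources used here, and the offset of the scale is unknown. Of 22625 probe sets, 77 controls were left out. Probe sets were named from the platform annotation (20766 with a single gene, 887 with several, 895 with none), and all 108 member symbols were found in RefSeq WBcel235. Genes that occur only on probe sets shared with another gene (7) were not counted. The 13L and NGM arrays were compared with limma 3.58.1 in R 4.3.3 (lmFit, eBayes, two-sided) with Benjamini-Hochberg adjustment over 22548 probe sets at a threshold of 0.05, and single genes with an exact permutation test over the 35 splits of 3 against 4 arrays. The number of arrays and the spread between them limit the precision.

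Genes named in the text were the 10 brightest members and those with an unadjusted p under 0.05. The largest differences among members above the yeast control filled these up to 5 per direction. Also named were all Hox and LIM genes, the brightest of each role list and the 5 above the yeast control with the largest SD within groups. The last rule took members with probe sets of opposite sign and an unadjusted p under 0.05 on either, which only ceh-38 met. Other members are named for their role or neighbours, after their values were seen. The members, role lists, target lists and markers were chosen with earlier results of these data known. Alternatives left out each array in turn, set the runs of title numbers as a block, gave limma a variance trend with robust shrinkage or weights per array, centred arrays on their medians, applied cyclic loess, dropped dim probe sets, averaged all probe sets of a gene, and dropped probe sets ending in _s_at or _x_at. Deviations from the group means correlated at 0.529, 0.156 and 0.537 within the 3 runs of title numbers.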

Additional observations from a re-analysis of the deposited data

Results flagged for a closer look

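In the NGM group, 2 of the named members had an array that lay far from the other 3 by Dixon's criterion, which chance meets in about 1 in 20 groups. For lim-4 it was SL5, at 0.747 on the log2 scale against 0.988 to 1.00 on the other NGM arrays. For mec-3 it was SL69, at 0.210 against 0.435 to 0.480, all below the yeast control.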

How the results depend on the processing

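No member reached an adjusted p under 0.05 under any alternative. The counts at an unadjusted p under 0.05 were small and moved. Members higher with 13L numbered 1 as reported, 2 with array weights, and 0 with trend and robust settings, with median centring, with only probe sets above the yeast control and with all probe sets of a gene averaged. With an array left out they numbered 0 (without SL1, SL69 or SL8) to 3 (without SL4). Members lower with 13L numbered 1 as reported, 3 with the runs as a block, 2 with trend and robust settings, 2 with array weights, and 0 without the _s_at and _x_at probe sets, where ceh-51 has no other probe set. With an array left out they numbered 0 (without SL1 or SL69) to 5 (without SL9), with 4 without SL4 and 2 without SL5. Over all probe sets fitted, the share at an unadjusted p under 0.05 moved as well: with an array left out it was 1.97% to 2.79% higher and 1.76% to 3.12% lower (3.12% without SL9, 2.65% without SL4), and under the other alternatives 2.13% to 3.82% higher and 2.24% to 4.06% lower. Members above every NGM array numbered 2 as reported, 1 among probe sets above the yeast control, and 3 to 9 (without SL4) with an array left out. Members below every NGM array numbered 1 as reported, 2 after median centring, 0 among probe sets above the yeast control, and 2 to 10 (without SL4) with an array left out. These 2 counts rise by construction with fewer arrays, and have no value under the block. With an array left out, the same shares over all genes were not computed, so these counts have no background to be read against. The median member difference ran from -0.04 to -0.0017 with an array left out and was 0.0045 with array weights. Of 506 values for the 35 named members, 466 kept their direction, and 20 members never turned. The sign turned with all probe sets of a gene averaged for ceh-21 (0.0074) and ceh-38 (0.15), and without the _s_at and _x_at probe sets for ceh-37 (-0.13) and hlh-2 (-0.038). With the runs as a block it turned for ceh-49 (-0.052), lim-6 (-0.074), lim-7 (0.034), nob-1 (0.084) and ttx-3 (-0.052). It turned after median centring for lim-6 (-0.0047) and ttx-3 (-0.00025), with cyclic loess for lim-6 (-0.0032), and with array weights for lim-7 (0.0089), nob-1 (0.0043) and php-3 (0.0048). With an array left out, the turned members ranged from -0.20 to 0.048 for ceh-38, -0.052 to 0.15 for ceh-49, -0.012 to 0.26 for ceh-83, -0.066 to 0.13 for hlh-11, -0.17 to 0.49 for hlh-2, -0.074 to 0.046 for lim-6, -0.18 to 0.034 for lim-7, -0.19 to 0.049 for lin-11, -0.090 to 0.0073 for lin-39, -0.12 to 0.084 for nob-1, -0.11 to 0.026 for php-3, -0.011 to 0.10 for tbx-36 and -0.074 to 0.13 for ttx-3. Apart from the choice of probe sets and arrays, the cause was not tested. The groups share no replicate number, so the runs were the only pairing tried.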
